A study of Mus musculus with 29 samples.

Results

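Transcripts of 7 genes for subunits of the GABA-A receptor (Gabra2, Gabra3, Gabra4, Gabra5, Gabrb1, Gabrb2 and Gabrd) were measured in the hippocampus of 29 mice. The genes were taken by symbol from a table of 31002 genes. Genes with at least 1 TPM (a transcript's share of all transcripts of a library, corrected for its length) in at least 2 mice were tested, and all 7 were among the 15554 that met this filter. Hippocampal RNA was sequenced once per mouse from 7 WT and 8 hAβ-KI mice aged 2 months and from 8 WT and 6 hAβ-KI mice aged 22 months. Both sexes were in every group, with 18 males and 11 females in all. hAβ-KI mice are homozygous for an App allele in which the mouse Aβ sequence was exchanged for the human wild-type sequence, without a familial Alzheimer's disease mutation, so that the peptide is made under the control of the mouse App locus. The allele carries loxP sites, and no Cre was listed for these mice. By the labels, the hAβ-KI mice were of strain C57BL/6NJ, while the strain listed for WT is C57BL/6N. The knock-in line started from C57BL/6N-derived embryonic stem cells and was bred with C57BL/6J mice before intercrossing and a later cross to C57BL/6NTac, so genotype and strain background cannot be told apart in these groups. The running numbers in the sample titles also fall into a separate block for each group, and the labels do not say what they stand for.

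GABA-A receptors are chloride channels opened by GABA, the main inhibitory transmitter of the brain, and each receptor is a ring of 5 subunits. Most receptors hold α, β and γ subunits. The α subunit and the γ or δ subunit set where a receptor sits and how it responds to drugs. In the hippocampus, α2 is typical of synaptic receptors, α5 of receptors on pyramidal cell dendrites outside the synapse, and α4 with δ of receptors of dentate granule cells that carry tonic inhibition.

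Facts of the series that touch these genes were few. The TPM of a library summed to between 717535 and 816940, and no pair of libraries held identical values. App itself was not called for genotype at either age (limma, log2 difference -0.11 and -0.01, adjusted p = 0.804 and 0.970). The RNA levels do not tell the human from the mouse Aβ sequence. The 6 pan-neuronal markers were all detected, and summed to 3052 to 3569 TPM over the 29 mice. The library of the hAβ-KI mouse 66-0 at 22 months stood apart from the other 28. Its 6 pyramidal cell markers summed to 234 TPM against 359 to 438 TPM in the others, and its 6 oligodendrocyte markers to 2389 TPM against 3536 to 5422 TPM. Its 10 interneuron markers summed to 3330 TPM against 2446 to 3094 TPM, led by the peptide gene Sst at 1372 TPM against 701 to 988 TPM. Gad2, Slc32a1, Vip, Npy and Calb2 were also highest there, while Pvalb (58.9 TPM) and Cck (1035 TPM) lay toward the low ends of their ranges, 56.7 and 987 TPM. Its 5 dentate granule cell markers summed to 114 TPM against 123 to 166 TPM. Of these, Prox1 was at 3.21 TPM against 4.99 to 9.15 TPM, and C1ql2, Dsp and Tdo2 were also lowest there. Calb1, at 68.7 TPM, was instead highest of the 29 mice. Results for the subunits are therefore given with and without this mouse where it moved them. As the samples were bulk tissue, fewer cells that express a subunit and less of its RNA per cell cannot be told apart.

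Gabra2 encodes α2, the subunit of receptors at the axon initial segment and on the cell body of pyramidal cells. On GRCm38 the gene spans 70957597 to 71095849 of chromosome 5, on the minus strand, in a cluster with Gabrg1, Gabra4 and Gabrb1. In the 7 WT mice at 2 months, Gabra2 was at 57.2, 78.9, 86.1, 87.2, 87.5, 89.2 and 96.0 TPM. In the 8 hAβ-KI mice of that age it was at 26.7, 29.1, 29.3, 49.6, 51.9, 60.6, 89.3 and 91.0 TPM. The WT values lay close together apart from the lowest, whereas the hAβ-KI values spread from under the lowest WT mouse into the WT range, with 5 of 8 hAβ-KI mice below every WT mouse. The WT mean was 83.1 ± 12.5 TPM (SD, n = 7). That of the hAβ-KI mice was 53.4 ± 25.8 TPM (SD, n = 8), which is 64.3% of WT. The difference was -0.76 on the log2(TPM + 1) scale (SE 0.22, 95% confidence interval -1.21 to -0.31) and did not pass the threshold over all genes (limma, adjusted p = 0.407).

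At 22 months of age, Gabra2 was at 70.7, 72.1, 73.3, 76.3, 77.8, 83.7, 84.3 and 85.8 TPM in the 8 WT mice. In the 6 hAβ-KI mice it was at 23.4, 24.04, 25.5, 26.9, 47.6 and 55.2 TPM. All 6 hAβ-KI mice were below all 8 WT mice, and the groups did not overlap. The WT mean was 78.0 ± 5.92 TPM (SD, n = 8). That of the hAβ-KI mice was 33.8 ± 13.9 TPM (SD, n = 6), or 43.3% of WT. Gabra2 fell by 1.27 on the log2(TPM + 1) scale (SE 0.23, 95% confidence interval -1.74 to -0.80, limma, adjusted p = 0.00680), and without mouse 66-0 the difference was -1.42 with an adjusted p of 0.00198. Among WT mice, Gabra2 was not called with age (-0.08, 95% confidence interval -0.53 to 0.37, adjusted p = 0.905). The intervals rest on 1 spread shared by the 4 groups, although the log2 SD of Gabra2 was 0.63 within hAβ-KI and 0.18 within WT groups. Among hAβ-KI mice the difference with age was -0.59 (95% confidence interval -1.06 to -0.12, adjusted p = 0.136, and 0.129 to 0.304 in 10 other settings). It passed the threshold when mouse 66-0 was left out (-0.75, adjusted p = 0.0546), as it did without any of 4 other hAβ-KI mice. The interaction of genotype and age was -0.51 and was not called (95% confidence interval -1.16 to 0.14, adjusted p = 0.767).

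**Figure D1:**
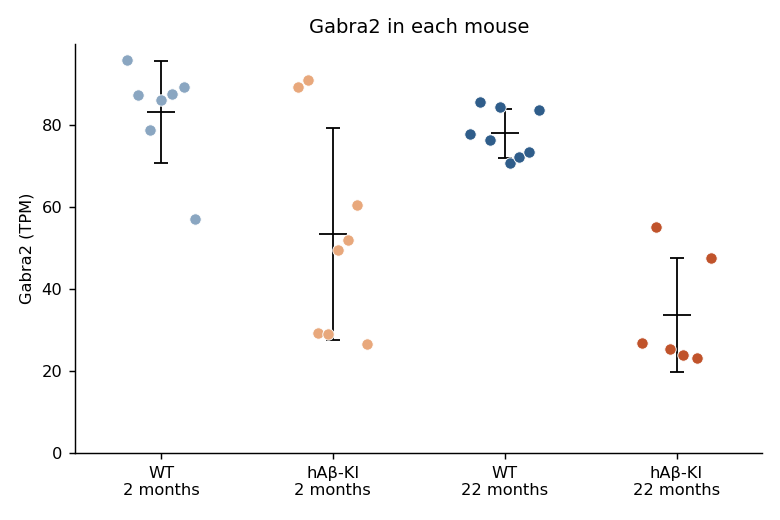
Gabra2 level in TPM (vertical axis) in each of the 29 mice (points) by group, with the mean and SD as black bars. The WT mice sit between 57.2 and 96.0 TPM, while the hAβ-KI mice spread from 23.4 to 91.0 TPM and at 22 months lie wholly below WT.

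Over both ages, the 14 hAβ-KI mice fell into separate levels of Gabra2. In order, 7 mice were at 23.4 to 29.3 TPM, 5 at 47.6 to 60.6 TPM, and 2 at 89.3 and 91.0 TPM. The steps between these levels were 1.62-fold and 1.48-fold, while no other step between neighbours in the order reached 1.10-fold. Relative to the median of the 15 WT mice, 83.7 TPM, the levels were 27.9% to 35.0%, 56.9% to 72.3%, and 107% to 109%. The lowest level held 3 mice at 2 months and 4 at 22 months, the middle level 3 and 2, and the highest level 2 young mice and no old one. In all, 11 of 14 hAβ-KI mice were below every WT mouse, with 1 further mouse, 56-4 at 60.6 TPM, above only the lowest WT mouse. These levels were named after the values were seen, and a break of at least 1.4-fold was used to set them.

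The spread of Gabra2 was accordingly wider in hAβ-KI than in WT mice. Its SD within groups on the log2 scale was 0.63 in hAβ-KI and 0.18 in WT mice, a ratio of 3.47, and 3.33 without mouse 66-0. Among the 7409 genes with a mean of at least 10 TPM this ratio had a median of 1.01, and Gabra2 ranked 13 from the top, or 7 without mouse 66-0, where the median was 0.937. Mice whose names share a number tended to share a Gabra2 level. For the hAβ-KI numbers 67, 175, 176 and 209 the pairs of mice differed by at most 1.05-fold. The pair of number 66 differed 2.17-fold, at 25.5 TPM in mouse 66-2 and 55.2 TPM in mouse 66-0. The labels do not say what a shared number stands for.

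Among the other α subunits, Gabra3, Gabra4 and Gabra5 were not called for genotype at either age. For Gabra3 at 22 months the confidence interval lay above 0 (0.06 to 0.57). The Gabra3 values of the genotypes overlapped there, with 3 of 6 hAβ-KI mice above all 8 WT mice. Of the 7 genes, 0 were called at 2 months, where 0.0386% of all genes tested were, at a false discovery rate under 0.1 with p under 0.05. Of the 7, 1 was called at 22 months, Gabra2, where 0.495% of all genes were. The median difference over the 7 was -0.05 at 2 months and -0.07 at 22 months on the log2(TPM + 1) scale, beside -0.03 and -0.01 over all genes tested.

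Gabra3, the gene of α3, which is more common in monoamine neurons and the developing cortex than in adult hippocampus, was the least abundant of the members coding for α subunits. It lies on the X chromosome from 72432681 to 72656848. At 2 months it ran from 8.95 to 13.5 TPM in WT mice, with a median of 10.4, and from 10.3 to 14.8 TPM in hAβ-KI mice, with a median of 11.8. At 22 months the WT mice were at 8.52 to 11.9 TPM with a median of 10.9, and the hAβ-KI mice were at 10.9, 11.4, 11.7, 12.2, 12.7 and 24.5 TPM. The groups overlapped at both ages, and the highest old value, 24.5 TPM, was that of mouse 66-0. The difference at 22 months was 0.32 (95% confidence interval 0.06 to 0.57, limma, adjusted p = 0.358), and 0.15 without mouse 66-0 (adjusted p = 0.550).

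Gabra4 encodes α4, the partner of δ in dentate granule cells. It ran from 33.7 to 50.9 TPM (median 48.4) in WT and from 34.8 to 50.8 TPM (median 45.0) in hAβ-KI mice at 2 months. At 22 months it ran from 32.5 to 47.0 TPM (median 41.9) in WT and from 33.2 to 44.5 TPM (median 40.9) in hAβ-KI mice. The ranges lay almost on top of each other. The genotype difference was -0.07 at 2 months (95% confidence interval -0.26 to 0.11, adjusted p = 0.964) and -0.05 at 22 months (95% confidence interval -0.25 to 0.14, adjusted p = 0.906), so that a fall of the size seen for Gabra2 was outside both intervals. Gabra4 lies on the minus strand from 71569749 to 71658308 of chromosome 5, 473.9 kb from Gabra2. Its first bases overlap those of Gabrb1, which starts at 71658113 on the opposite strand, and reads from that overlap cannot be assigned by libraries that do not mark strand.

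Gabra5, the gene of the extrasynaptic α5 of pyramidal cells, was the most abundant of the 7 members by mean TPM in every group. At 2 months it ran from 111 to 138 TPM (median 123) in WT and from 97.9 to 135 TPM (median 121) in hAβ-KI mice. At 22 months it ran from 95.8 to 125 TPM (median 108) in WT mice, and the hAβ-KI mice were at 51.2, 103, 111, 117, 117 and 118 TPM. Again the value that stood off, 51.2 TPM, was that of mouse 66-0. Its sum of pyramidal cell markers was also lowest of the 29 mice. Fibcd1, Pou3f1, Bok, Neurod6 and Iyd were each lowest there, while the marker Wfs1 was highest, at 110 TPM. The part of tissue makeup in the Gabra5 value of this mouse was not tested. The difference at 22 months was -0.12 (95% confidence interval -0.37 to 0.14, adjusted p = 0.804) and turned to 0.07 without mouse 66-0 (adjusted p = 0.754). Gabra5 lies on chromosome 7 from 57407672 to 57510059 and overlaps the annotated start of another gene on the opposite strand, so that reads from the overlap cannot be assigned.

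Of the β subunits, Gabrb1 was the most even of the 7 genes. The β subunits form the GABA site together with α and carry the signals for transport to the membrane. At 2 months Gabrb1 ran from 69.0 to 80.7 TPM (median 74.7) in WT and from 67.8 to 79.9 TPM (median 76.4) in hAβ-KI mice. At 22 months it ran from 67.6 to 76.5 TPM (median 70.9) in WT and from 62.9 to 72.2 TPM (median 68.9) in hAβ-KI mice. The genotypes overlapped at each age, with differences of 0.02 (95% confidence interval -0.07 to 0.10, adjusted p = 0.989) and -0.07 (95% confidence interval -0.16 to 0.02, adjusted p = 0.645).

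Gabrb1 was also the member that was called with age in the hAβ-KI mice. Its mean was 75.02 ± 4.58 TPM (SD, n = 8) in the young and 68.1 ± 3.44 TPM (SD, n = 6) in the old mice, or 90.8% of the young level, with 2 of 6 old mice below all young ones. The difference was -0.14 (SE 0.04, 95% confidence interval -0.23 to -0.05, adjusted p = 0.0667). It was 1 of 7 members called in this comparison, where 9.18% of all genes tested were called, a share near that of the members. The call was lost on leaving out any of 7 of the 14 hAβ-KI mice, mouse 66-0 among them (-0.11, adjusted p = 0.136), and in a model of the hAβ-KI groups alone (adjusted p = 0.132). In WT mice, 0 of 7 members were called with age, where 5.0% of all genes were, and Gabrb1 differed by -0.06 (95% confidence interval -0.14 to 0.03, adjusted p = 0.561). No member was called for the interaction of genotype and age, nor were more than 0.00643% of all genes, and the interaction for Gabrb1 was -0.08 (95% confidence interval -0.21 to 0.04, adjusted p = 0.808).

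Gabrb2 encodes β2 and was low in this tissue. It ran from 6.61 to 10.7 TPM (median 8.91) in WT and from 5.88 to 9.70 TPM (median 7.58) in hAβ-KI mice at 2 months. At 22 months it ran from 5.21 to 10.95 TPM (median 8.94) in WT and from 5.75 to 8.58 TPM (median 7.20) in hAβ-KI mice. The hAβ-KI medians were lower at both ages but lay within the WT ranges. The differences were -0.16 (95% confidence interval -0.41 to 0.10, adjusted p = 0.925) and -0.21 (95% confidence interval -0.47 to 0.06, adjusted p = 0.624). Gabrb2 lies on chromosome 11 from 42419757 to 42629028.

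Gabrd encodes δ, which replaces γ in extrasynaptic receptors that respond to low GABA. It lies near the end of chromosome 4, from 155384980 to 155398112. At 2 months it ran from 23.9 to 29.3 TPM (median 25.1) in WT and from 25.3 to 30.6 TPM (median 27.9) in hAβ-KI mice. At 22 months it ran from 22.5 to 32.1 TPM (median 29.3) in WT and from 24.99 to 31.1 TPM (median 26.1) in hAβ-KI mice. The order of the medians thus differed between the ages, and the groups overlapped at both. The genotype difference was 0.10 (95% confidence interval -0.05 to 0.24, adjusted p = 0.907) at 2 months and -0.05 (95% confidence interval -0.20 to 0.10, adjusted p = 0.871) at 22 months, with an interaction of -0.15 (95% confidence interval -0.35 to 0.06, adjusted p = 0.788).

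**Figure D2:**
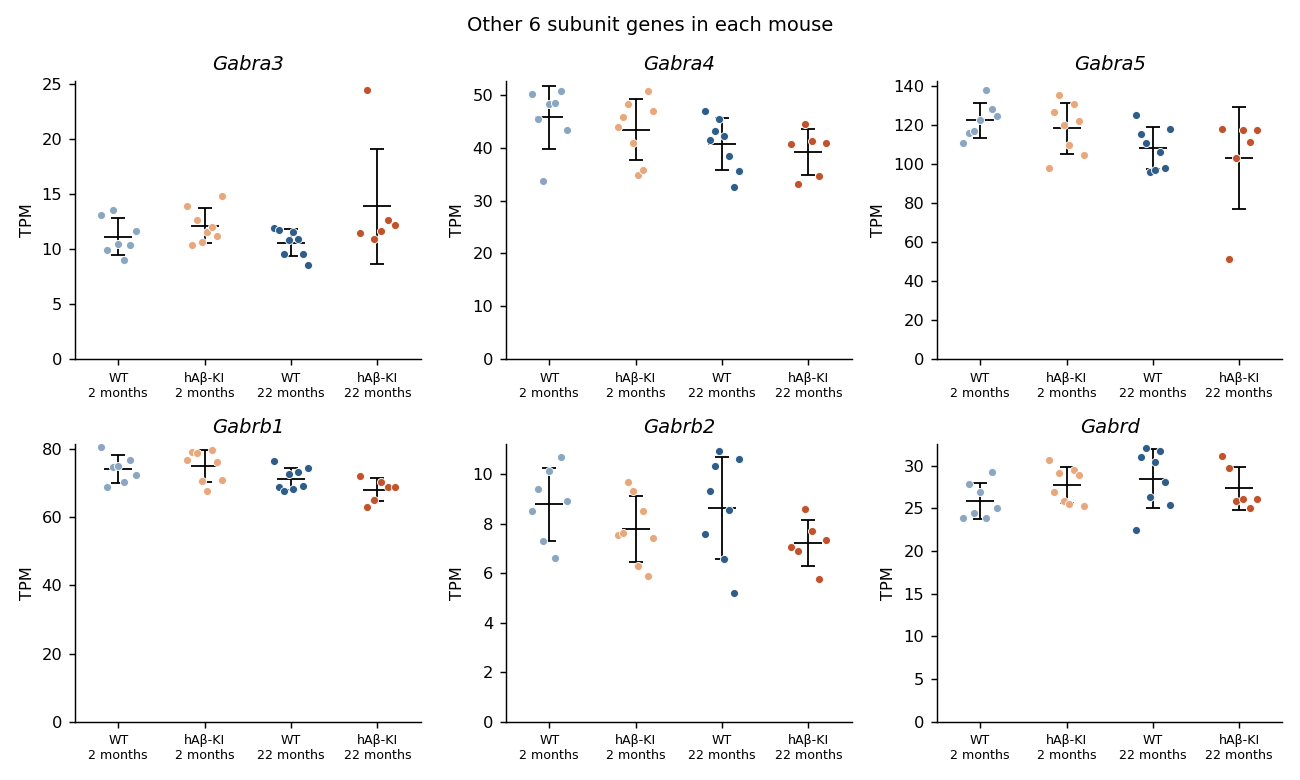
Level in TPM (vertical axes) of the 6 members other than Gabra2 in each mouse (points) by group, with means and SD as black bars. The genotypes overlap in every panel, and the points at 24.5 TPM for Gabra3 and 51.2 TPM for Gabra5 are the old hAβ-KI mouse 66-0.

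Further subunit genes were looked at beside the members. Of 12 such genes, 6 passed the filter, of which Gabrg1, Gabrg3 and Gabrr2 are given here. Gabra6, Gabre, Gabrp, Gabrq, Gabrr1 and Gabrr3 did not reach 1 TPM in any mouse. None of the 3 given was called for genotype at either age. Gabrg1, the gene of γ1 and the neighbour of Gabra2 on chromosome 5, differed by 0.01 at 2 months and 0.11 at 22 months (limma, adjusted p = 0.998 and 0.831), and its highest value, 16.3 TPM against 6.11 to 9.73 TPM in the other 28 mice, came from mouse 66-0. Gabrg3, the gene of γ3, differed by -0.15 and 0.18 (adjusted p = 0.922 and 0.659). Gabrr2, the gene of ρ2, differed by -0.24 and -0.14 (adjusted p = 0.839 and 0.804). Over the 6 members other than Gabra2, the genotype difference at 22 months ran from -0.21 to 0.32, and the confidence limits from -0.47 to 0.57. The fall of 1.27 for Gabra2 lay outside this span.

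**Figure D3:**
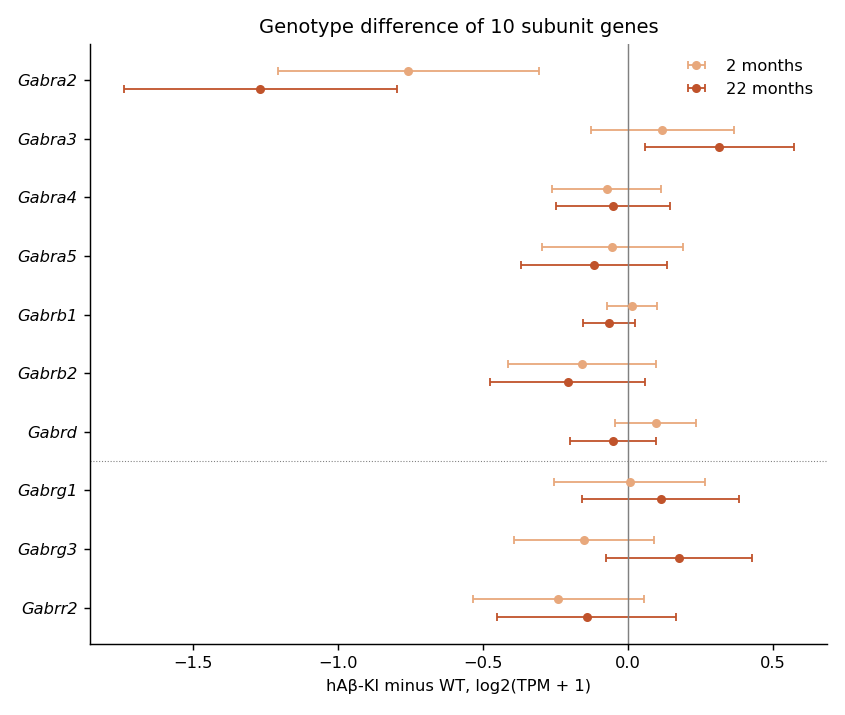
Difference between hAβ-KI and WT mice in log2(TPM + 1) (horizontal axis) for 10 subunit genes at 2 and 22 months of age, with limma's 95% confidence intervals as bars. Members are above the dotted line, and Gabra2 is the gene whose estimates, -0.76 and -1.27, lie to the left of all others.

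As TPM are corrected for transcript length, levels may be set beside each other. In WT mice at 2 months the order of means among the members was Gabra5 (122 TPM), Gabra2 (83.1 TPM), Gabrb1 (74.2 TPM), Gabra4 (45.8 TPM), Gabrd (25.9 TPM), Gabra3 (11.1 TPM) and Gabrb2 (8.80 TPM). All neighbours in this order kept it in at least 6 of 7 mice, with Gabra2 over Gabrb1 and Gabra3 over Gabrb2 in 6. In old hAβ-KI mice, Gabra2 was no longer above Gabrb1 in any mouse and its mean of 33.8 TPM ranked below that of Gabra4 (39.2 TPM), with Gabra4 above Gabra2 in 4 of 6 mice. Gabra2 and Gabrd, at 27.3 TPM, did not keep an order there, as Gabra2 was higher in 2 of 6 mice.

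Of the summed transcripts of the 4 members that code for α subunits, Gabra2 made up 31.6% ± 3.58 in young (SD, n = 7) and 32.9% ± 1.91 in old WT mice (SD, n = 8). Among hAβ-KI mice its share ran from 13.01% to 36.4% with a median of 23.3% in the young (n = 8), and from 12.4% to 33.7% with a median of 13.8% in the old (n = 6). The share of 33.7% was that of mouse 66-0, and the highest of the other 5 old mice was 21.8%. The summed TPM of these 4 genes at 2 months was 262 ± 17.4 in WT against 227 ± 27.1 in hAβ-KI mice, and at 22 months 237 ± 16.4 against 190 ± 18.1 (SD, n = 7, 8, 8 and 6). Without Gabra2 the sums were 179 ± 10.7 and 174 ± 14.1 TPM at 2 months, and 159 ± 13.2 and 156 ± 23.8 TPM at 22 months. Without mouse 66-0, the old hAβ-KI mice had a sum of 195 ± 14.5 TPM with Gabra2 and of 165 ± 6.46 TPM without it (SD, n = 5). The sum of the 4 was thus lower in the groups with less Gabra2. The sum of Gabra3, Gabra4 and Gabra5 in old hAβ-KI mice was below the WT mean with mouse 66-0 and above it without that mouse, in both cases by less than the SD of the WT mice. These sums are given as a description, with no test.

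**Figure D4:**
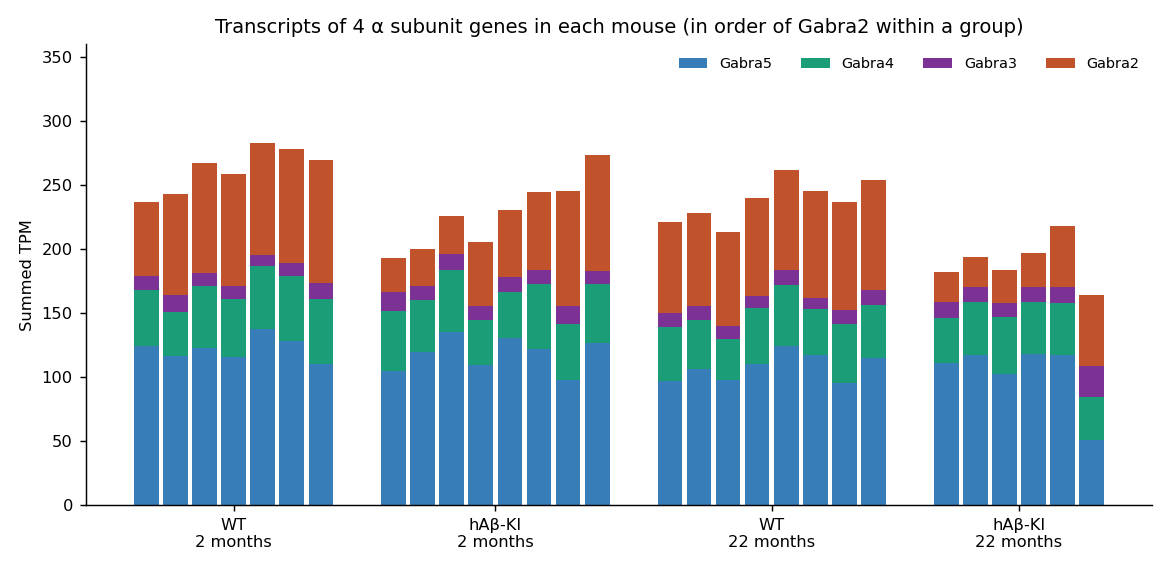
Summed TPM of Gabra5, Gabra4, Gabra3 and Gabra2 (vertical axis) in each mouse, stacked by gene, with mice ordered by Gabra2 within each group. Gabra2, the uppermost part of each bar, makes up 31.6% and 32.9% on average in WT mice and has medians of 23.3% and 13.8% in hAβ-KI mice, while the parts below keep similar heights except in the last old hAβ-KI bar, mouse 66-0.

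Whether the other subunits followed Gabra2 was examined in the 14 hAβ-KI mice, in order of their Gabra2 level. In the mouse with the least Gabra2, 67-2 at 23.4 TPM, Gabra3 was at 12.7, Gabra4 at 34.6, Gabra5 at 111, Gabrb1 at 68.9, Gabrb2 at 5.75 and Gabrd at 24.99 TPM. In the mouse with the most, 175-2 at 91.0 TPM, they were at 10.3, 46.0, 126, 79.2, 7.63 and 26.95 TPM. Mouse 176-0, also low in Gabra2 at 29.3 TPM, held the highest Gabra5 (135 TPM) and Gabrb2 (9.70 TPM) of the 14 and 48.3 TPM of Gabra4. Mouse 209-0, in the middle at 49.6 TPM of Gabra2, was among the lowest in Gabra4 (34.8 TPM) and Gabrb1 (67.8 TPM). The 6 members thus did not step with Gabra2. Gabra2 ran from 27.9% to 109% of the WT median. Apart from mouse 66-0, Gabra4 stayed between 79.8% and 117%, Gabra5 between 84.6% and 117%, Gabrb1 between 89.6% and 110% and Gabrd between 92.8% and 116% of their own WT medians. Gabra3, at 95.7% to 137%, and Gabrb2, at 64.5% to 109%, varied more. In mouse 66-0 Gabra3 was at 226% and Gabra5 at 44.2%.

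**Figure D5:**
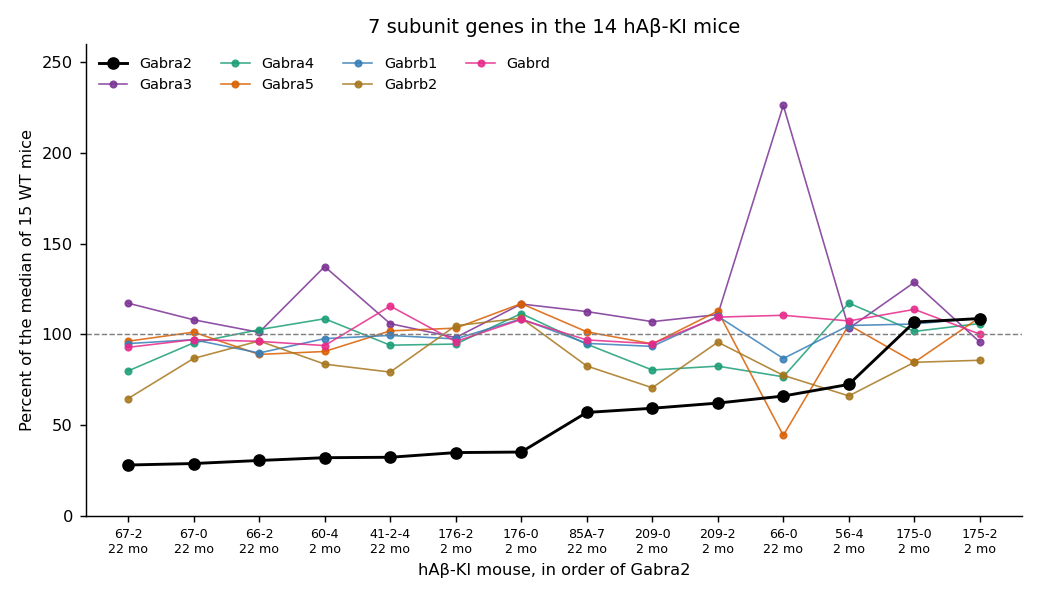
Level of the 7 genes in the 14 hAβ-KI mice, each as a percent of its median over the 15 WT mice (vertical axis), with mice ordered from the lowest to the highest Gabra2 (horizontal axis, mouse name and age). The black Gabra2 line rises in steps from 27.9% to 109%, while the other lines show no matching steps. Apart from mouse 66-0, those lines lie between 64.5% (Gabrb2) and 137% (Gabra3). Mouse 66-0 is at 226% for Gabra3 and 44.2% for Gabra5.

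The same was seen in the spread within groups. The ratio of the SD in hAβ-KI to that in WT mice was 0.971 for Gabra4, 1.17 for Gabrb1, 0.704 for Gabrb2 and 0.749 for Gabrd. For Gabra3 and Gabra5 it was 1.66 and 2.57, but 0.7998 and 1.09 without mouse 66-0. No correlation over all 14 mice was tested, because Gabra2 fell into separate levels. Within the 7 mice of the lowest level, the mean of each age was removed from the log2 values before any correlation or permutation. Pearson's r of the 12 other tested subunit genes with Gabra2 then ran from -0.65 to 0.82. None passed a two-sided permutation test over all pairings after Benjamini-Hochberg adjustment over the 12. The pairings crossed the ages, and mice sharing a name number were treated as independent, so that these p-values are approximate. The highest r was that of Gabrd (r = 0.82, Spearman's rho = 0.89, permutation p = 0.00992, adjusted p = 0.119). Without the 2 mice farthest from the median Gabra2, r was 0.76, and on leaving out mouse 66-2 the smallest adjusted p among the 12 was 0.0333. The Gabra2 values of these 7 mice span only 23.4 to 29.3 TPM. Within an age they span 26.7 to 29.3 TPM in the 3 young and 23.4 to 26.9 TPM in the 4 old mice. The 5 and 2 mice of the other levels were too few for such a test.

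As a description of likeness, Pearson's r with Gabra2 over the 14 hAβ-KI mice, after the mean of each age was removed, was ranked over 15545 tested genes that varied. Of the members, Gabrd ranked 1682 (r = 0.41), Gabra3 3876 (r = 0.27), Gabrb1 6218 (r = 0.13), Gabra4 10867 (r = -0.14), Gabrb2 13584 (r = -0.32) and Gabra5 14300 (r = -0.39). No member was thus near the top of the list. The 5 genes with the highest r were Socs2 (0.88), Arsa (0.87), 4930520O04Rik (0.84), Otub1 (0.84) and Ggct (0.83), and the 3 with the lowest were Socs6 (-0.88), Mettl4 (-0.83) and Pcdhb11 (-0.82). None of these 8 varied as widely as Gabra2 where well expressed, since Socs2 ran only from 22.1 to 30.6 TPM and Otub1 from 265 to 328 TPM in the hAβ-KI mice. The ranking carries no test.

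The genes beside Gabra2 on chromosome 5 were compared because 3 of them are subunits. To the left lay Kctd8, Guf1, Gnpda2 and Gabrg1, and to the right Cox7b2, Gabra4, Gabrb1 and the non-coding Gm43477. None of the 8 was called for genotype at either age. Gnpda2, 1365 kb away, was the gene with the smallest p among them, with a difference of -0.17 at 2 months and -0.20 at 22 months (adjusted p = 0.736 and 0.370), and it ran from 16.8 to 26.6 TPM in hAβ-KI and 22.4 to 31.2 TPM in WT mice. The nearest on the left, Gabrg1 at 115 kb, and on the right, Cox7b2 at 347 kb, differed at 22 months by 0.11 (adjusted p = 0.831) and -0.32 (adjusted p = 0.812).

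Because the labels name different C57BL/6 substrains for the genotypes, and brain Gabra2 is known to be lower in C57BL/6J than in C57BL/6N mice, 3 genes known to differ between substrains were measured beside it. Nnt, the mitochondrial transhydrogenase whose gene is partly deleted in C57BL/6J, was present in every mouse and was not called for genotype, with log2 differences of -0.02 and -0.03 at 2 and 22 months (adjusted p = 0.990 and 0.950). By the paper, the knock-in line was bred to carry intact Nnt, so the Nnt level does not bear on the background at other genes. Entpd4, a nucleotidase gene, rose in hAβ-KI mice, with every hAβ-KI mouse above every WT mouse of its age and differences of 0.71 and 0.69 at 2 and 22 months (limma, adjusted p = 0.000854 and 0.00234). Wdfy1 was, like Gabra2, spread over several levels in hAβ-KI mice, from 3.64 to 29.3 TPM, against 18.99 to 29.3 TPM in WT mice. Its differences of -0.99 and -1.18 did not pass (adjusted p = 0.508 and 0.172). The mice low in Wdfy1 were in part the same and in part other mice. Of the lowest Gabra2 level, mice 67-2, 67-0, 60-4, 176-2 and 176-0 held 3.64 to 6.59 TPM of Wdfy1. In that level, 66-2 held 16.2 TPM and 41-2-4, with 26.9 TPM of Gabra2, held 24.6 TPM of Wdfy1. Mouse 85A-7, with 47.6 TPM of Gabra2, held 5.87 TPM of Wdfy1. The part of strain background in the Gabra2 levels was not tested.

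Other genes of GABA signaling showed few differences. The 8 genes of GABA synthesis, release, uptake and breakdown, among them Gad1, Gad2 and the vesicular transporter Slc32a1, had 0 calls for genotype or age, with a median difference of -0.04 at 22 months beside -0.01 over all genes. The GABA-B receptor genes Gabbr1 and Gabbr2 and the chloride transporter genes Slc12a2 and Slc12a5 also had 0 calls. Of 11 genes for anchoring and trafficking of GABA-A receptors, 1 was called for genotype at 22 months, where 0.495% of all genes tested were. With age in hAβ-KI mice 3 of the 11 were called, beside 9.18% of all genes tested. Plcl1, which encodes a protein that binds the β subunits and the phosphatases acting on them, rose at 22 months. Its WT mean was 2.46 ± 0.30 TPM (SD, n = 8) and its hAβ-KI mean 3.69 ± 0.89 TPM (SD, n = 6), a difference of 0.42 (95% confidence interval 0.22 to 0.62, adjusted p = 0.0693) that was lost on leaving out any of 7 of the 14 mice, and it rose with age in hAβ-KI mice (0.38, adjusted p = 0.0210). Zdhhc3, the gene of a palmitoyltransferase, fell with age in hAβ-KI mice by 0.18 (adjusted p = 0.0860) but was not called on leaving out any of 8 of the 14 mice. Neither passed in WT mice with age (adjusted p = 0.874 and 0.528), and the interactions were not called (adjusted p = 0.617 and 0.851).

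Cell type markers were set beside the Gabra2 result. None of the 10 interneuron, 5 dentate granule cell or 6 pyramidal cell markers was called for genotype at either age, nor were markers of astrocytes or microglia. At 22 months, with mouse 66-0 included, all 6 pyramidal cell markers were lower in hAβ-KI mice. Their median difference was -0.21, beside -0.01 over all genes tested. All 6 pan-neuronal, 4 of 5 dentate granule cell and 4 of 10 interneuron markers were lower, beside 54.2% of all genes tested. The part of these markers in the Gabra2 result was not tested. The interneuron markers summed to 2446 to 2880 TPM in old WT and 2559 to 3330 TPM in old hAβ-KI mice, and the pyramidal cell markers to 365 to 401 TPM and 234 to 394 TPM. Of the 6 pan-neuronal markers, Rbfox3, which encodes the neuronal protein NeuN, fell at 22 months by 0.20 (adjusted p = 0.0678), a call lost on leaving out any of 8 of the 14 mice, while it passed with age in hAβ-KI mice on leaving out any 1 of those 14 mice (-0.19, adjusted p = 0.0190). Eno2, the neuronal enolase gene, fell with age in both genotypes (-0.17 in hAβ-KI and -0.13 in WT mice, adjusted p = 0.00468 and 0.0498), and in WT mice was not called on leaving out mouse 119-0 or mouse C57-50-4. With age in hAβ-KI mice, 9.18% of all genes tested were called. Of the 6 pyramidal cell markers, 3 fell in this comparison, beside Gabrb1, and of the 5 dentate granule cell markers Tdo2 did. These were Iyd (-0.69, adjusted p = 0.0563), Neurod6 (-0.44, adjusted p = 0.0761) and Fibcd1 (-0.30, adjusted p = 0.0902), with Tdo2 at -0.46 (adjusted p = 0.0617). Iyd fell in WT mice too (-0.74, adjusted p = 0.0470). All 4 were lowest of the 29 mice in mouse 66-0, and without it Iyd (-0.44, adjusted p = 0.145), Fibcd1 (-0.16, adjusted p = 0.226) and Tdo2 (-0.35, adjusted p = 0.1503) were not called, while Neurod6 was (-0.19, adjusted p = 0.0406). Neurod6, Fibcd1, Iyd and Tdo2 lost their calls on leaving out any of 4, 8, 3 and 6 of the 14 hAβ-KI mice. The part of these markers in the age differences of subunits was not tested. The choroid plexus markers ranged from 110 to 18941 TPM over the mice in all groups, and their part in the TPM of other genes was not tested beyond the rescaling described with the processing.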

How the data were processed

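The authors made cDNA by the Smart-seq2 protocol, built Nextera libraries, which do not mark strand, sequenced paired reads of 43 bases, and deposited TPM estimated with RSEM 1.2.22 after alignment with STAR 2.5.1b to GRCm38 with Gencode vM8. The paper gives only an approximate number of reads per sample, and the deposited TPM hold no read counts. The depth of each single library is thus unknown, and precision is given as the spread between mice. The table leaves out some gene classes and is not scaled again. From it, log2(TPM + 1) was computed, and genes with at least 1 TPM in at least 2 mice entered limma 3.58.1 (R 4.3.3, eBayes with a trend) in a model of the 4 groups, with Benjamini-Hochberg adjustment over 15554 genes and a call at a false discovery rate under 0.1 with p under 0.05. Fold changes on this scale understate those of low genes. Python 3.11.15, scipy 1.17.1 and pandas 2.3.3 did the other steps. The scripts were tested on simulated data. The members, gene lists and named genes (all 7 members, further subunits, list genes that were called, and those most like Gabra2 or beside it) were chosen with earlier results of these data known. Mouse names came from the labels, and each library is from a separate mouse. Results for some listed genes are not reported here. Positions are from GENCODE M21 on GRCm38. Of all 43-base stretches of their transcripts, 0.63% in Gabra2, 3.82% in Gabra5 and at most 0.205% in the other members occur in another gene.

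Alternatives were a pseudocount of 0.1, no filter, a mean of at least 1 TPM, quantile normalization, rescaling to nuclear protein-coding genes, a model of the compared groups alone, a term for sex, robust or untrended eBayes, mice sharing a name number treated as correlated, and each mouse left out.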

Additional observations from a re-analysis of the deposited data

Results flagged for a closer look

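Of 28 groups of values of the 7 members, 2 held a mouse that lay farther from the others than Dixon's 95% limit allows. Chance alone would give about 1 in 20. Both were the old hAβ-KI mouse 66-0. Its Gabra3 level was 24.45 TPM, with the next mouse of the group at 12.66 TPM, and the gap took up 0.871 of the group's range against a limit of 0.625. Its Gabra5 level was 51.17 TPM, with the next mouse at 102.82 TPM, and the gap took up 0.775 of the range. The marker sums of this mouse are given with the results, and their part in these values was not tested.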

How the results depend on the processing

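Gabra2 at 22 months kept its direction and its call in all 10 other settings (-1.29 to -1.21, adjusted p 0.00630 to 0.0165) and on leaving out each of 14 mice (-1.42 to -1.18, adjusted p 0.00198 to 0.0375). The 77 genes called at 22 months became 40 with only the groups compared, 48 without a trend and 49 with mice sharing a name number correlated. The gene called for the interaction was lost, leaving 0, with a pseudocount of 0.1, no filter, quantile normalization, rescaling, sex as a covariate, no trend and name numbers correlated, where 1067 genes had an unadjusted p under 0.05 in the limma fit reported. With only the groups compared, 0 members were called with age in hAβ-KI mice. Quantile normalization turned the age difference of Gabrd in hAβ-KI mice to 0.0045 and the interaction of Gabra4 to -0.0052, and sex as a covariate turned the latter to -0.0078. All 3 are close to 0. The cause was not tested. On leaving out each mouse, 30 to 143 genes were called for genotype at 22 months, the highest without mouse 66-0, 6 to 11 at 2 months, 509 to 751 with age in WT and 910 to 1527 in hAβ-KI mice, and 0 to 3 for the interaction. Members called with age in hAβ-KI mice were 0 to 2, and without mouse 66-0 the member was Gabra2, not Gabrb1. Subunits related to Gabra2 within the lowest level were 0 to 1. The spread ratios moved to 0.7998 for Gabra3 and 1.09 for Gabra5 without mouse 66-0, an alternative chosen after seeing the data. Differences of members turned sign in 17 of 609 fits that left out 1 mouse, all in results not called. The ranges over those fits were -0.0012 to 0.036 for Gabrb1 by genotype at 2 months, -0.17 to 0.072 for Gabra5 by genotype at 22 months, -0.098 to 0.046 for Gabrb2 with age in WT mice, and -0.032 to 0.19 for Gabra3 and -0.058 to 0.0032 for Gabrd with age in hAβ-KI mice. For the interaction they were -0.023 to 0.091 for Gabra4, -0.11 to 0.13 for Gabra5 and -0.14 to 0.0093 for Gabrb2.

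The relation of subunits to Gabra2 was not run within each age, since Gabra2 falls into separate levels there. No paired analysis was possible because the replicate numbers only count the mice of a group and the name numbers of mice are not shared between groups. TPM give no depth, so that no counting error can be stated.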

Other observations

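Gabrd lies beside a stretch of chromosome 4 in which the young hAβ-KI mouse 209-0 stood off. This was noticed after the values were seen. Of the 15 tested genes with a mean of at least 10 TPM from Ssu72 to Sdf4 (155704800 to 156013610 on GRCm38), all 15 were lower in this mouse than in each of the other 28, at 41.9% to 61.0% of the median of those mice. Ssu72, which encodes a phosphatase of RNA polymerase II, was at 61.8 TPM against 108 to 140 TPM, and Sdf4 at 64.5 TPM against 126 to 150 TPM. The 5 such genes from Gabrd up to that stretch were at 86.7% to 94.9%, with Gabrd itself at 25.5 TPM against 22.5 to 32.1 TPM, and the 2 beyond it, Agrn and Noc2l, at 88.8% and 95.4%. The mouse that shares its name number, 209-2, was among the 28. No cause was tested.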
